A study of Mus musculus with 2 samples.

Results

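Acinar enzyme genes were followed cell by cell through 8 classes of islet cells: Prss2, Try4, Try5, Ctrb1, Cela1, Cela2a, Cpa1, Clps, Rnase1 and Reg1. They are 10 of the 31053 genes listed in each of 2 count tables. The genes were chosen from earlier values of these same cells, in which acinar RNA stood apart between the libraries, so their values here are a description. That earlier work left unresolved which of the genes held the acinar UMIs of delta cells. Both libraries hold handpicked islets of WT NOD/ShiLtJ mice at 15 weeks of age, a strain prone to autoimmune diabetes. One group ate a diet of 16% HC with 4% gluten and the other a diet of 20% HC, and the labels do not spell out HC. Cells of 3 mice were pooled for each library, so there is 1 library per diet and no test across animals was possible. Values are given with gluten first and HC alone second. Brackets hold exact 95% intervals that cover counting error only.

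Acinar cells of the exocrine pancreas make digestive enzymes, most of them as inactive precursors, pack them in zymogen granules and release them into the duct. In the gut, activated trypsin cuts the precursors of the other proteases, colipase serves pancreatic lipase, and ribonuclease cuts dietary RNA. Their transcripts are so abundant that droplets holding other islet cells often carry some of them as free RNA from broken acinar cells. Islet delta cells secrete somatostatin (Sst) and PP cells pancreatic polypeptide (Ppy), and digestive enzymes are not what either is known for.

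Promoters are shown for Cela1, whose counts in delta cells went apart from those of the other 9 genes, and for Prss2 and Cela2a beside it. Cela1 encodes elastase 1, Prss2 a trypsinogen and Cela2a another elastase. Acinar enzyme promoters are known for binding the PTF1 complex, through an E-box (CACCTG) near a TC-box (TTTCCC). The 250 bases before the RefSeq start site on build GRCm38.p6 are printed 5′ to 3′, with every CACCTG and TTTCCC on either strand in capitals, and no match shares a base with another. The windows are chr15:100687921-100688170 on the minus strand for Cela1, chr6:41521526-41521775 on the plus strand for Prss2 and chr4:141826006-141826255 on the minus strand for Cela2a.
Cela1: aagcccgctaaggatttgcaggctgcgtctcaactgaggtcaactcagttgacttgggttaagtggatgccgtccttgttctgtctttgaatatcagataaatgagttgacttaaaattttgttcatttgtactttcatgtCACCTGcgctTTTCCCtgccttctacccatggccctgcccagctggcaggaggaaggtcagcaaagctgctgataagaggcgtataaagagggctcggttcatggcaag
Prss2: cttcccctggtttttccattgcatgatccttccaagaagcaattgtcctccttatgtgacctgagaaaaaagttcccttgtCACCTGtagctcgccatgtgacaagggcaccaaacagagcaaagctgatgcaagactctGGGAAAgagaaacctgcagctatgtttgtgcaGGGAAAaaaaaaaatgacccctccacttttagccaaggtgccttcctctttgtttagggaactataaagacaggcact
Cela2a: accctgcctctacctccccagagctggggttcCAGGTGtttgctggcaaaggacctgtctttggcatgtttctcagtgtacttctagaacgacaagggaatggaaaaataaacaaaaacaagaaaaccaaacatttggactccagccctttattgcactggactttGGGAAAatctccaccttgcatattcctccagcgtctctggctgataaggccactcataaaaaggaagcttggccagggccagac
All 3 windows held both motifs, and they are the only windows of the members that did. In Cela1 CACCTG began 109 bases and TTTCCC 99 bases before the start site. The motifs lay farther apart in the other windows shown. In Prss2 they began 169 bases and 110 and 78 bases before the start site, and in Cela2a 218 and 84 bases. Of 32851 mouse promoter windows, 17.2% held CACCTG, 21.9% held TTTCCC and 3.61% held both. Of the 8 members with a promoter entry, 4 held CACCTG, 6 held TTTCCC and 3 held both. Try5 and Clps had no entry.

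On mm10, in the GENCODE vM21 annotation, all 10 are protein-coding genes. Cela1 lies at chr15:100674421-100687921 on the minus strand, Cela2a at chr4:141814962-141826160 (minus), Clps at chr17:28558149-28560766 (minus), Rnase1 at chr14:51144998-51146785 (minus) and Ctrb1 at chr8:111686519-111691010 (minus). Chromosome 6 holds the trypsin genes Try4 at 41302269-41305532 (plus), Try5 at 41311233-41316841 (minus) and Prss2 at 41521787-41525079 (plus), and also Cpa1 at 30639218-30645363 (plus) and Reg1 at 78422711-78428667 (plus). Trypsin genes resemble each other: transcripts of Try4 and Try5 were 97.1% identical, with a shared run of 104 bases in the last 400, and those of Prss2 and Try4 88.6%. How reads that fit several genes were counted is not given in the sources used here, so the split between Try4, Try5 and Prss2 is uncertain. Cela1 is set apart from its relatives, with 54.7% identity to Cela2a and 55.7% to Cela3b and no shared run over 18 bases in that stretch.

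The tables held 8200 and 7758 barcodes with 88268070 and 116900677 UMIs, and 15 barcodes occurred in both libraries. After the filters, 7122 and 7111 cells were kept. Classes were gated on marker genes that exclude the 10 genes: 614 and 312 delta cells (by Sst), 41 and 45 PP cells (Ppy), 1116 and 606 alpha cells (Gcg), 1262 and 1613 beta cells (Ins1 and Ins2), 36 and 28 ductal, 1311 and 2254 T, 1071 and 1173 B and 16 and 18 acinar cells. Of 11 delta markers outside the gate, 10 and 9 were counted as highest in delta cells. That count does not hold over all 8 classes. With HC alone the delta marker Hhex stood at 461 CPM in ductal cells and 437 CPM in delta cells. Only 3 of 8 PP markers were counted as highest in PP cells, so that class rests on Ppy. The T list does not part T cells from other lymphocytes with the same genes. Levels are CPM, the UMIs of a gene per 1000000 UMIs of the class. They are not divided by gene length, because each UMI of this 3' assay marks 1 transcript.

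In acinar cells the 10 genes summed to 563032 and 547746 CPM, their highest level of any class. Ctrb1, the chymotrypsinogen B gene, took 39.0% and 27.7% of their UMIs. Among the trypsin genes, Prss2 took 13.5% and 14.6%, Try4 8.96% and 17.2%, and Try5 5.98% and 6.86%. The elastase genes were close to each other, Cela1 with 7.41% and 9.81% and Cela2a with 7.39% and 7.91%. Clps, the colipase gene, took 7.39% and 6.47%, and Cpa1, a carboxypeptidase gene, 5.12% and 5.20%. Rnase1, the pancreatic ribonuclease gene, took 2.45% and 3.54%, and Reg1, which encodes a secreted protein of acinar cells, 2.79% and 0.815%. Over the 16 acinar barcodes with gluten, the Cela1 share ran from 1.41% through a median of 7.06% to 12.8%. With HC alone it ran from 6.63% through 10.2% to 22.2% in the 16 barcodes that held more than Clps. The other 2 barcodes of that class passed the gate almost wholly on Zg16, with 4202 of 4206 and 156 of 158 gate UMIs, and carried the goblet cell genes Tff3, Fcgbp, Muc2 and Clca1 (named after their values were seen), which goes against an acinar label. The Cela1 share was 9.81% with and without them. One HC alone barcode of 202573 UMIs held 40.9% of the class's UMIs of the 10 genes, and without it the Cela1 share was 8.97%.

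Delta cells held mainly Cela1. With gluten Cela1 took 1729 of the 2745 UMIs that delta cells had from the 10 genes, 63.0% [61.1, 64.8]. With HC alone it took 1544 of 1644, 93.9% [92.7, 95.02]. The highest share in any acinar barcode was 22.2%. In T cells Cela1 took 6.51% and 10.8%, and in B cells 5.81% and 5.74%, near the acinar shares. Among the other 9 genes in delta cells with gluten, Ctrb1 came next with 11.8%, then Prss2 with 7.83%, Try4 with 6.16% and Try5 with 3.50%. Cela2a, Clps, Cpa1, Reg1 and Rnase1 took 2.59%, 2.15%, 1.06%, 1.02% and 0.947%. With HC alone, Ctrb1 had 33 UMIs over 312 delta cells, Prss2 18, Try4 16 and Try5 13, and each of the others 2 to 6.

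**Figure D1:**
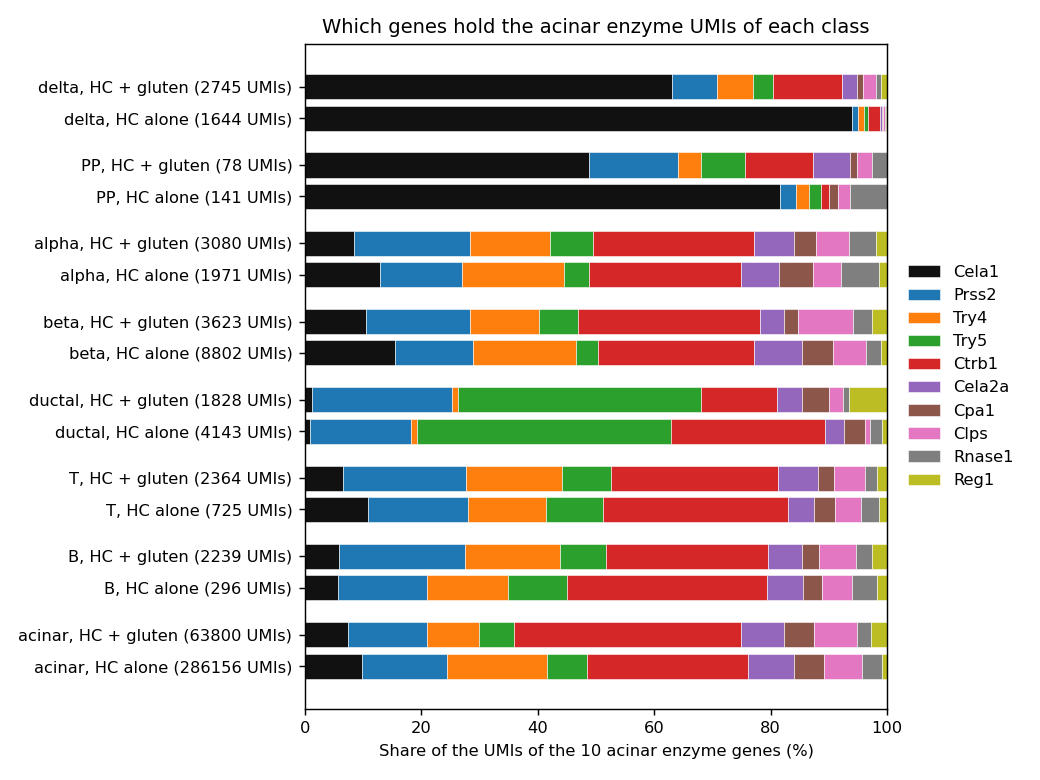
Share of the UMIs of the 10 genes that each gene held, in percent, by marker-gated class and library. Cela1 took 63.0% and 93.9% in delta cells and 48.7% and 81.6% in PP cells, against 7.41% and 9.81% in acinar cells, and Try5 led in ductal cells.

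The level of Cela1 in delta cells was 332 CPM [317, 348] with gluten and 428 CPM [407, 450] with HC alone, and these intervals do not overlap. Outside acinar cells, with 41724 and 53726 CPM, no class reached that level. With gluten the order below delta cells was B cells (47.1 CPM), PP (45.1), ductal (35.8), T (33.6), alpha (21.5) and beta cells (9.74). The intervals of B, PP and ductal cells overlapped, and those of PP and ductal cells also overlapped T cells. Ductal cells overlapped alpha cells as well, and T and alpha cells did not overlap. With HC alone the order was PP (90.4 CPM), ductal (53.2), alpha (28.5), beta (20.5), T (8.86) and B cells (4.84). There T and B cells overlapped and no other neighbours did, although the ends of PP and ductal cells nearly met, at 74.7 and 74.3 CPM. That order rests on single barcodes: without the richest of each class, PP cells stood at 66.2 CPM [52.4, 82.5], overlapping ductal cells, and alpha (8.79 [6.95, 11.0]), T (8.07 [6.30, 10.2]) and beta cells (7.20 [6.56, 7.87]) overlapped each other.

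The other 9 genes ran the opposite way. Their summed level in delta cells was 195 CPM [183, 208] with gluten and 27.7 CPM [22.6, 33.7] with HC alone. In both libraries this was below the level in T cells (482 and 73.5 CPM) and in B cells (765 and 79.5 CPM), which are not known to make digestive enzymes. Alpha cells stood at 231 and 193 CPM, beta cells at 83.1 and 112 CPM, and PP cells at 47.5 and 20.4 CPM. Without the richest barcode of each class and library, alpha cells stood at 219 and 41.9 CPM, beta cells at 60.5 and 11.7 CPM, which turns the direction between libraries in beta cells, and PP cells at 25.4 and 20.1 CPM. Thus per UMI delta cells lay above T and B cells in Cela1 and below them in the sum of the others. With gluten the other 9 genes had 1016 UMIs over 614 delta, 2210 over 1311 T and 2109 over 1071 B cells. With HC alone they had 100 over 312 delta, 647 over 2254 T and 279 over 1173 B cells. Per cell, delta cells were thus lowest with gluten, near T cells, and highest of these classes with HC alone.

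**Figure D2:**
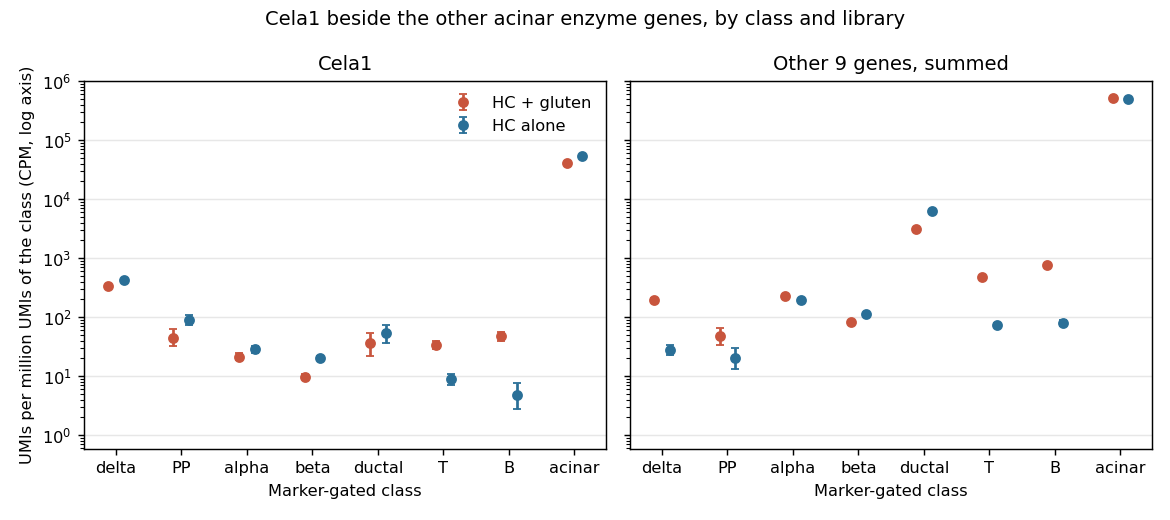
CPM of Cela1 (left) and of the other 9 genes in sum (right) by class and library, on a log axis, as points with exact 95% Poisson intervals. Delta cells stand above every class but acinar cells for Cela1 (332 and 428 CPM), and below T and B cells for the other 9 genes (195 and 27.7 CPM).

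Cela1 was spread over most delta cells. At least 1 Cela1 UMI was found in 62.1% [58.1, 65.9] and 76.0% [70.8, 80.6] of delta cells, at median depths of 7904.5 and 10427.5 UMIs. In T cells, at median depths of 2279 and 2762 UMIs, the shares were 8.54% and 3.02%, and in B cells, at 2097 and 2660 UMIs, 7.94% and 1.45%. A delta cell held a median of 1 and 3 Cela1 UMIs and at most 46 and 36. After each cell was thinned to 2000 UMIs, Cela1 was found in 36.2% [32.4, 40.2] and 47.1% [41.5, 53.0] of delta cells, against 6.84% and 1.83% of T cells, 7.55% and 1.09% of B cells, 3.33% and 1.15% of alpha cells and 1.82% and 1.16% of beta cells. This left out 15 and 9 delta, 478 and 401 T, and 470 and 193 B cells that were shallower. At the same depth any of the other 9 genes was found in 18.1% and 5.44% of delta cells, which is under the 27.4% and 12.7% of T cells and the 31.7% and 12.8% of B cells. Thus at 2000 UMIs delta cells lay below the T and B shares for the other 9 genes and above them for Cela1. Without thinning the other 9 genes were found in 41.0% and 23.4% of delta cells. The unthinned shares were 35.9% and 19.0% in T cells and 37.5% and 17.2% in B cells, so the order of the other 9 genes turned without thinning. Whether these UMIs came from free RNA was not tested.

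Delta cells without any UMI of the other 9 genes still held Cela1. With gluten, the 362 delta cells with no UMI of the other 9 genes held 316 CPM [297, 337] of Cela1, the 193 with 1 or 2 such UMIs 333 CPM [306, 363], the 23 with 3 to 9 held 372 CPM [285, 477] and the 36 with 10 or more 451 CPM [383, 528]. With HC alone, the 239 delta cells with none held 435 CPM [410, 461] and the 68 with 1 or 2 held 403 CPM [362, 447]. In T cells with gluten the same steps gave 9.48, 14.9, 75.3 and 382 CPM, and in B cells 9.93, 11.7, 163 and 479 CPM. So T and B cells without the other 9 genes were nearly without Cela1, and those rich in them reached the level of delta cells. The Cela1 level was also alike over most of the range of Sst: it was 332 CPM [309, 356] and 454 CPM [426, 484] in delta cells with 10 to 20% of their UMIs from Sst, and 334 CPM [313, 357] and 399 CPM [368, 433] in those with 20% or more. The 8 and 5 cells at 5 to 10% had 13 and 5 Cela1 UMIs, 12 of the 13 in 1 barcode.

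**Figure D3:**
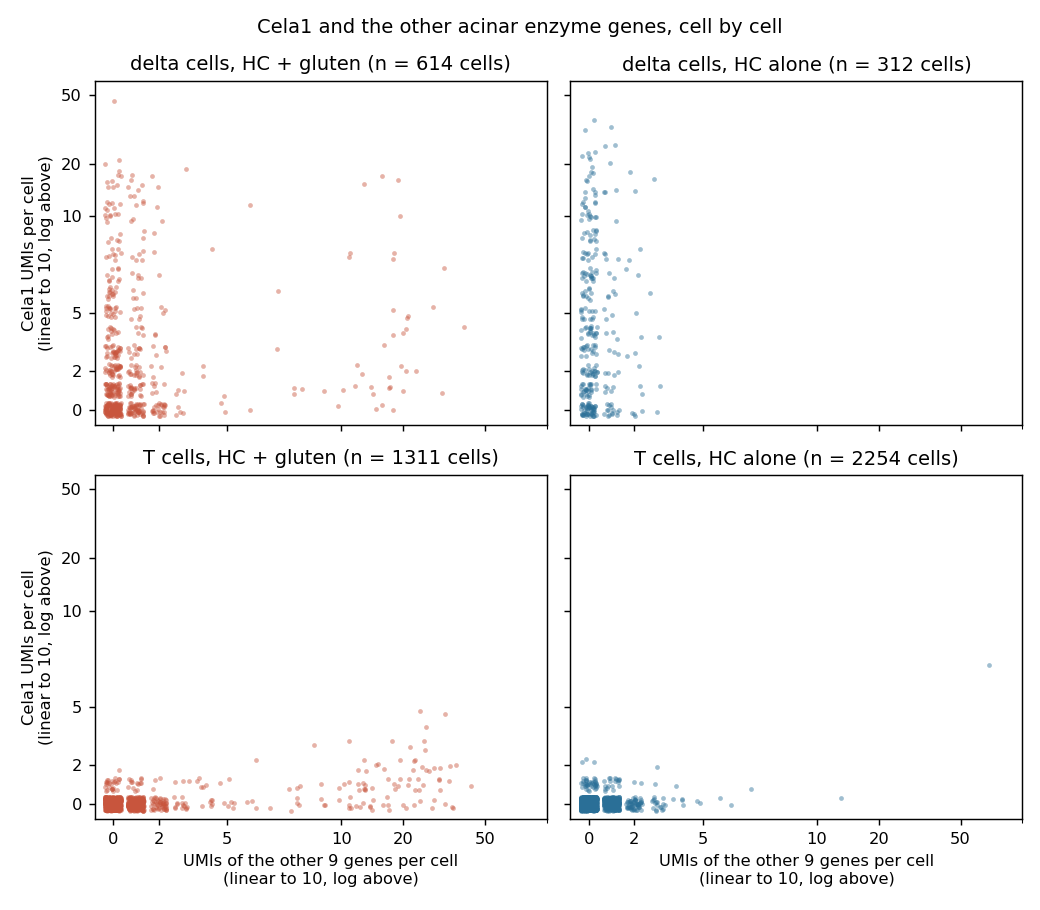
UMIs of Cela1 (vertical) against UMIs of the other 9 genes (horizontal) in each delta cell (top) and T cell (bottom) with gluten (left) and HC alone (right), on axes linear to 10 and logarithmic above, with points shifted at random by less than 1 UMI. Delta cells reach 46 and 36 Cela1 UMIs, those with HC alone near the vertical axis and those with gluten also off it, 36 of 614 with 10 or more UMIs of the other genes, while the T cells rich in the other 9 genes hold few Cela1 UMIs.

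Cells with at least 10 UMIs of the 10 genes were of 2 kinds among delta cells. They made up 87 delta cells with gluten, 14.2% [11.5, 17.2], and 47 with HC alone, 15.1% [11.3, 19.5], a difference of -0.895 percentage points [-5.97, 3.74]. With HC alone all 47 had at least 50% of those UMIs from Cela1; in sum Cela1 held 97.5%, and no cell had over 3 UMIs of the other 9 genes. With gluten 50 of the 87 were of that kind, with 91.0% from Cela1 and a median of 0.5 UMIs from the other 9 genes. The remaining 37, or 6.03% of the delta cells, held 26.6% Ctrb1, 18.0% Prss2, 17.0% Cela1 and 14.8% Try4. Their median Sst share was 21.5%, against 21.9% in the Cela1 kind. The 79 such T cells with gluten, also 6.03% of their class, held 29.7% Ctrb1, 20.2% Prss2, 17.5% Try4 and 5.66% Cela1, and none of them had 50% from Cela1. The near-equal shares of such delta cells in the libraries thus covered a different make-up.

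The same count differed between libraries beyond counting error in T, B, alpha and beta cells, and not in PP cells (-4.01 points [-16.4, 8.47]), ductal cells (5.16 [-14.6, 22.95]) or acinar cells (5.56 [-14.3, 25.8]). In T cells it was 6.03% with gluten and 2 cells, 0.0887%, with HC alone, a difference of 5.94 points [4.75, 7.36]. In B cells it was 6.91% and 0 of 1173 cells, which allows a share of up to 0.256%. Alpha cells had 8.96% and 0.495%, and beta cells 7.77% and 1.24%. The count changed with thinning: in 461 and 279 delta cells thinned to 6481 UMIs it was 9.07% and 4.14%, a difference of 4.93 points [0.978, 8.30]. The 153 and 33 shallower delta cells were left out, so this change mixes depth with the cells dropped. The near equality of the delta shares was thus lost with thinning. It was also lost without thinning at a limit of 5 UMIs, as given below.

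In PP cells Cela1 again had the most UMIs of the 10 genes, from few cells. Cela1 took 38 of 78 UMIs of the 10 genes with gluten, 48.7% [37.2, 60.3], and 115 of 141 with HC alone, 81.6% [74.2, 87.6]. It was found in 24.4% and 37.8% of PP cells, which are the deepest of the small classes, at medians of 15117 and 19245 UMIs. At 2000 UMIs the shares were 5.17% [0.596, 16.5] and 10.7% [3.79, 24.6]. The interval of the first holds the 6.84% of T cells, so that share could not be placed above or below T cells. Most of the UMIs came from cells that also held Sst. The 6 and 8 PP cells with 0.5 to 5% of their UMIs from Sst held 30 of the 38 and 92 of the 115, at 144 CPM [97.4, 206] and 215 CPM [173, 264]. The other 35 and 37 PP cells stood at 12.6 CPM [5.44, 24.8] and 27.2 CPM [17.3, 40.9]. Hhex, a transcription factor gene of delta cells, was at 57.8 and 74.8 CPM in the first set and at 1.58 and 0 CPM in the second. It was not confined to delta cells (423 and 437 CPM), with 314 and 461 CPM in ductal and 46.8 and 97.4 CPM in B cells. The richest PP cell with HC alone had 36 Cela1 UMIs and 2 of the other 9 genes, and the richest with gluten 11 and 0.

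Other members were scarce in PP cells. With gluten 1 barcode held 19 of their 40 UMIs, and Prss2 had 12 UMIs, Ctrb1 9, Try5 6, Cela2a 5, Try4 3, Clps and Rnase1 2 each and Cpa1 1. With HC alone Rnase1 had 9, Prss2 4, Try4, Try5 and Clps 3 each, and Ctrb1 and Cpa1 2 each. Reg1 was at 0 in both libraries, which at a floor of 3 counts allows up to 7.32% and 6.67% of PP cells with a UMI. Cela2a was at 0 with HC alone, which allows 6.67%. The exact upper limits were 8.60% and 7.87% for Reg1 and 7.87% for Cela2a.

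Alpha and beta cells split along the same line. In alpha cells under 0.5% Sst, Cela1 stood at 17.1 CPM [14.8, 19.6] and 23.4 CPM [20.3, 26.9]; 176 of the 200 UMIs behind the second value lay in 1 barcode, and without it the level was 2.82 CPM. In the 30 and 14 alpha cells at 0.5 to 5% Sst it was 85.6 CPM [66.3, 109] and 147 CPM [111, 192]. In beta cells under 0.5% Sst it was 5.76 CPM [5.00, 6.59] and 1.22 CPM [0.957, 1.53]. In the 69 and 87 beta cells at 0.5 to 5% Sst it was 63.2 CPM [54.1, 73.4] and 278 CPM [263, 294], the latter 88.9 CPM without 1 barcode of 881 Cela1 UMIs. Those beta cells held 171 of 380 and 1282 of 1357 (94.5%) Cela1 UMIs of their class, with 881 of the 1282 in that 1 barcode. Hhex went the same way, from 1.05 and 1.29 to 92.0 and 147 CPM in alpha cells and from 0.606 and 0.487 to 60.2 and 70.5 CPM in beta cells. The beta cells with Sst were deeper, at medians of 36005 and 49106 UMIs against 27371 and 37080. Whether such barcodes are single cells or pairs of cells was not tested.

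**Figure D4:**
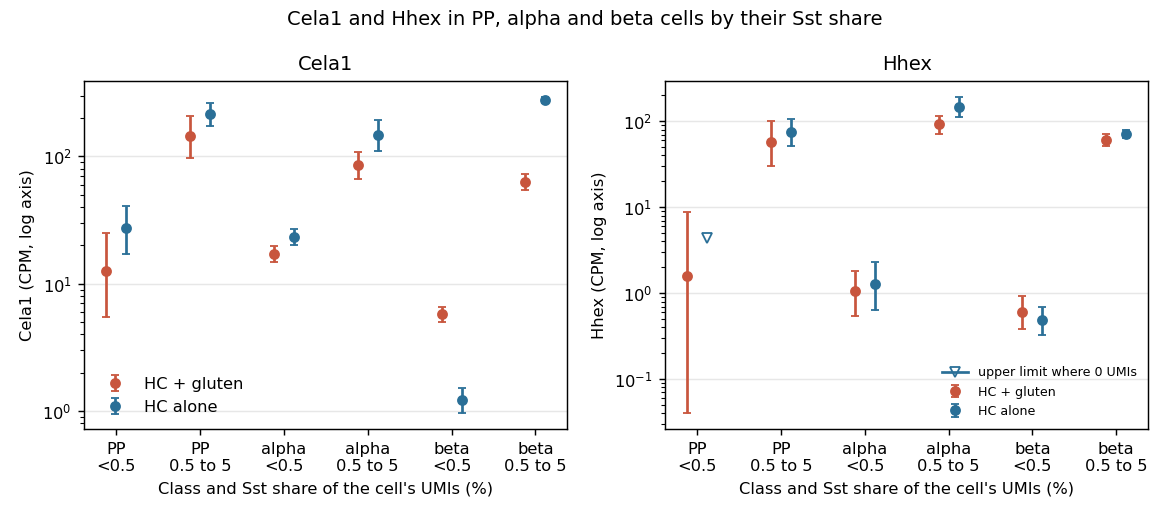
CPM of Cela1 (left) and of Hhex (right) in PP, alpha and beta cells under 0.5% and at 0.5 to 5% of UMIs from Sst, by library, on log axes with exact 95% Poisson intervals; an open triangle is the upper limit where there were 0 UMIs. Both genes are higher in the cells with Sst in all 3 classes, for Cela1 at 144 and 215 CPM against 12.6 and 27.2 CPM in PP cells.

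Single barcodes carried much of the alpha and beta signal with HC alone. One alpha barcode held 1521 of the 1971 UMIs of the 10 genes in its class (77.2%), and 1 beta barcode 7549 of 8802 (85.8%). Gene by gene, their make-up lay within 2.28 and 1.55 percentage points of the richest acinar barcode of that library. Acinar list genes made up 4.17% and 4.90% of their UMIs, under the 5% at which a barcode is gated as acinar. With gluten the richest alpha and beta barcodes held 5.45% and 25.8% of their classes' UMIs of the 10 genes.

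Rnase1 was the gene that departed from the rest in alpha cells. It had 142 UMIs with gluten and 128 with HC alone, 39 of the latter in the barcode above, and was found in 9.68% and 9.24% of alpha cells. Without the top barcode of each library its level was 11.6 and 10.0 CPM, a log2 ratio of 0.22 [-0.18, 0.61], whereas the ratios of the 8 other genes beside Cela1 were 2.13 to 3.37. At 2000 UMIs it was found in 2.26% and 1.92% of alpha cells, against 2.26% and 0.56% of T cells and 3.78% and 0.58% of B cells. It was therefore not above the T and B shares with gluten, and above them with HC alone only. The difference in Rnase1 between alpha cells and lymphocytes was not tested.

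In ductal cells Try5 had the most UMIs of the 10 genes, from a few barcodes. Try5 took 41.6% and 43.7% of the UMIs of the 10 genes, 761 and 1809 UMIs, and its near copy Try4 1.09% and 1.06%, 20 and 44 UMIs. The 3 gluten barcodes with at least 50 UMIs of the 10 genes had 268, 448 and 37 UMIs of Try5 and 0, 1 and 1 of Try4. The 1 such barcode with HC alone had 1804 of Try5 and 25 of Try4, and 4000 of the 4143 UMIs of the 10 genes in the class. Cela1 was at 1, 0, 0 and 3 UMIs in these 4 barcodes. In acinar cells Try4 stood above Try5 in both libraries, so these barcodes differ from the acinar class in that order, within the uncertainty of reads that fit both genes. Single acinar barcodes also had Try5 above Try4, 5 of 16 with gluten and 3 of 18 with HC alone. Acinar list genes made up 2.43 to 3.98% and 4.77% of their UMIs, under the acinar gate of 5%. The remaining 33 and 27 ductal cells held 122 and 143 UMIs of the 10 genes, 211 and 228 CPM, and there Try5 had 8 and 5 UMIs, Ctrb1 25 and 30, Cela1 20 and 31, and Clps 25 and 17.

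In T and B cells all 10 genes were higher with gluten. Ctrb1 stood at 148 and 26.1 CPM in T cells and at 225 and 29.1 CPM in B cells, and Prss2 at 109 and 14.2 CPM and at 177 and 12.8 CPM. The log2 ratio of gluten over HC alone ran from 1.92 (Cela1) to 3.25 (Cela2a) in T cells and from 2.53 (Rnase1) to 3.91 (Reg1) in B cells. Counting genes with at least 50 UMIs in the library of higher CPM as measured, 8 of 8 measured members were at least 2-fold higher with gluten in T cells, where 2.31% of all measured genes were, and 10 of 10 in B cells, where 2.25% were. The median log2 ratio over all measured genes was -0.12 in both classes. Since the genes were chosen from this contrast, nothing is read from these counts.

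In delta cells Cela1 and the other genes parted in this ratio. Cela1 had a log2 ratio of -0.37 [-0.47, -0.27], so its level was lower with gluten. The other 9 genes had ratios of 2.17 (Rnase1) to 3.28 (Reg1), with Prss2 at 3.05 [2.35, 3.83] and Ctrb1 at 2.76 [2.24, 3.33], beside 2.01 to 3.25 for the same 9 genes in T cells. Of 7 measured members, 6 were at least 2-fold higher with gluten, beside 1.18% of all measured genes, and the all-gene median was -0.04. In alpha cells 1 of 10 was 2-fold higher (1.81% of all measured genes) and in beta cells 0 of 10 (1.26%), with Try4, Cela1, Cela2a and Cpa1 at least 2-fold lower in beta cells, at -1.11, -1.07, -1.50 and -1.72. Without the richest barcode of each library the ratios of the other 9 genes were 0.22 to 3.37 in alpha and 1.58 to 3.18 in beta cells, and those of Cela1 1.20 and 0.23, so the lower beta values changed direction without these barcodes. In PP cells only Cela1 was measured, at -1.003 [-1.57, -0.46], and at -0.57 [-1.17, 0.014] without the richest barcodes. The test of a difference between classes could not be made with 1 library per diet.

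**Figure D5:**
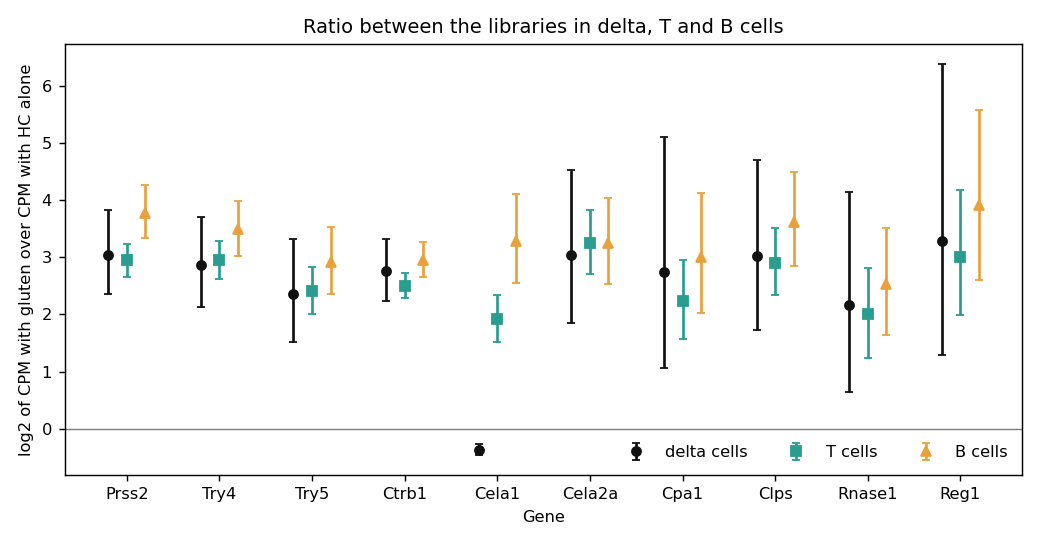
Log2 ratio of CPM with gluten over CPM with HC alone for each of the 10 genes in delta (circles), T (squares) and B cells (triangles), with exact 95% intervals for counting error. Cela1 in delta cells lies at -0.37 and the other points between 1.92 and 3.91.

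Among 31 further acinar genes listed for comparison, chosen like the members with earlier results known, few held many UMIs in delta or PP cells. Those with the most UMIs in delta cells included Pnlip (pancreatic lipase, 127) and 2210010C04Rik (84, a trypsinogen-like gene) with gluten, and Bhlha15 (41) and Nr5a2 (17), both transcription factor genes, with HC alone. In PP cells they included Pla2g1b (10), Bhlha15 (8) and 2210010C04Rik (5) with gluten, and Bhlha15 (7) and Pnlip (6) with HC alone. Nr5a2 was not highest in acinar cells. Without the richest barcode of each class it stood there at 0 and 6.25 CPM, against 55.0 and 55.7 CPM in ductal cells. On the same basis Bhlha15 stood at 7.92 and 11.45 CPM in delta cells, near its 7.57 and 9.54 CPM in beta cells. In acinar cells Bhlha15 was at 34.0 and 12.5 CPM, from only 3 and 4 UMIs. Of the list's measured genes, 5 of 6 were at least 2-fold higher with gluten in delta cells (1.18% of all measured genes), 9 of 9 in T cells (2.31%), 10 of 10 in B cells (2.25%), 0 of 10 in alpha cells (1.81%) and 0 of 14 in beta cells (1.26%), where 6 were at least 2-fold lower. The alpha and beta counts include the HC alone barcodes that held 77.2% and 85.8% of their classes' UMIs of the 10 genes, and were not computed without them.

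Over the 16 profiles of class and library, likeness was measured by Pearson correlation of log2(CPM + 1) among 14242 genes, and the genes most like Cela1 included Serpini2 (0.911) and Cuzd1 (0.910). Cela1 correlated with the other members at 0.730 to 0.841 (median 0.802), and the medians of the other members were 0.954 to 0.983. Prss2, Ctrb1 and Reg1 were each most like Cela3b, Cela2a was most like Ctrc, Try4 like Pnlip, Try5 like Spink1, and Cpa1, Clps and Rnase1 like 2210010C04Rik. These values describe 16 points that share 2 libraries, and the acinar class, which is far higher in every one of these genes, weighs on all of them.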

How the data were processed

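The authors deposited 1 table of raw UMI counts (genes by cell barcodes) per library, made with Cell Ranger 4.0.0 on mm10 per the submitters' processing notes. Neither the annotation release nor the calling of cells is stated in those sources. Of 31053 gene identifiers, 30934 matched a symbol in GENCODE vM21. Barcodes under 500 UMIs, under 200 genes or over 20% mitochondrial UMIs were dropped, leaving 7577 and 7565. Scrublet (scanpy 1.11.5) marked 3 and 182 as doublets by its own threshold, so the 6% with the highest score were removed, 455 and 454. Kept cells had medians of 6401 and 5460 UMIs. A cell joined a class when its gate markers reached a share of its UMIs: 20% for beta, 10% for alpha, 5% for delta, PP and acinar, 1% for ductal and 0.3% for T and B. Macrophage, endothelial and mesenchymal markers had gates of 0.3% too, and cells that passed these were kept out of every class. All limits were set after seeing the markers' spread. The 292 and 139 cells that passed several of all these gates, like the 595 and 412 that passed none, were left out. The 8 classes held 5467 and 6049 cells.

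UMIs were summed over a class and divided by its total (CPM), with exact Poisson intervals. Shares carry Clopper-Pearson intervals, differences of shares Newcombe intervals and log2 ratios exact conditional binomial intervals (scipy 1.17.1), all at 95% and all for counting error only, since cells are not replicates. A count of 0 was given a floor of 3 counts. Thinned values are the exact mean over all ways of drawing that many UMIs from each cell that held at least as many. The ratio and its interval were tried on simulated independent Poisson counts. Such counts meet the interval's own assumption and lack the clumping of UMIs in single cells, so they cannot show how it does on these data. Motifs were searched in RefSeq promoters (Biopython 1.88, Python 3.11.15). Named were all 10 genes, for each the outside genes most like it, the 3 further acinar genes with the most UMIs in delta and PP cells, and gate or check markers. One gene that this rule names is not reported here. The members and lists were chosen with earlier results of these data known. Alternatives changed the gates, doublet removal, cell filter, denominator, carrier limit, thinning and the cells left out.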

Additional observations from a re-analysis of the deposited data

Results flagged for a closer look

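The ratio of Cela1 between the libraries ran in opposite directions in different classes. Its log2 ratio of gluten over HC alone was -0.37 in delta cells, whereas it was 1.92 in T cells and 3.28 in B cells. The difference between these classes was not tested, since there is 1 library per diet and cells are not replicates.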

How the results depend on the processing

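Of 822 comparisons of a value with its alternative, 553 kept their direction and size class, and 26 passed below and 24 above a limit. Another 203 moved. These were levels and shares beyond their counting interval, and sign changes of ratios under 2-fold or of differences whose interval held 0. The last 16 were ratios of at least 2-fold that changed sign, so sign changes in all were more than 16. No cause was tested. The Cela1 log2 ratio in delta cells was between -0.41 and -0.32 under the alternatives for gates, doublets, cell filter, denominator and cells left out. Thinned to 6481 UMIs, with shallower cells left out, a delta cell held 2.05 and 2.82 Cela1 UMIs. Per UMI outside hormone, acinar and mitochondrial genes, delta Cela1 was 444 and 556 CPM and the other 9 genes 261 and 36.0 CPM. Without the 1% of cells richest in the 10 genes, the delta gluten values were 166 CPM for the other 9 genes and a Cela1 share of 65.8%, delta Cela1 with HC alone was 402 CPM and the PP gluten share 63.8%. Without cells of 10 or more such UMIs, delta Cela1 was 210 and 278 CPM and its share 75.6 and 90.8%, the other 9 genes with gluten were 67.8 CPM, and the PP share with HC alone was 73.8%; no acinar cell with gluten was left, so no acinar value exists there. Delta cells past a limit of 5 UMIs were 30.0% and 42.9% (difference -13.0 points), and past 20 UMIs 3.91% and 3.85% (0.0626). Past 10 UMIs after thinning, with shallower cells left out, they were 9.07% and 4.14% (4.93). Beta log2 ratios of Try4, Cela1, Cela2a and Cpa1 changed sign. They became 2.11, 0.89, 3.45 and 1.76 without the richest 1%, and 0.46, 0.28, 2.14 and 0.068 without cells of 10 or more UMIs. Added after seeing the data, leaving out the richest barcode gave 2.28, 0.23, 3.18 and 1.85 and a PP gluten share of 63.8%, and leaving out cells with 0.5% or more Sst gave 2.44, 2.24, 3.39 and 2.18, with PP shares of 17.0 and 59.0%. No paired analysis was possible because each diet has 1 library. The PP, ductal and acinar classes hold 16 to 45 cells each, and T and B cells have median depths of 2097 to 2762 UMIs.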

Other observations

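Acinar barcodes of the library with HC alone repeated one make-up. Of the 18, 8 lay within 3 percentage points, on each of the 10 genes, of the richest barcode, itself counted, which held 202573 UMIs. They include barcodes of 63952, 41185 and 24042 UMIs and go down to 3616 UMIs.

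With gluten, acinar barcodes fell into sets by Clps, a split seen in the data and not tested. In 7 barcodes Clps took 0.771 to 1.52% of the UMIs of the 10 genes, and there Cela2a took 7.07 to 16.3% and Cpa1 7.48 to 9.31%. In the other 9 Clps took 8.003 to 18.6%, Cela2a 0 to 6.19% and Cpa1 1.07 to 5.67%. The shallowest acinar barcodes, 3 with gluten (816 to 1077 UMIs) and 2 with HC alone (808 and 838 UMIs), also carried insulin, at 8.26 to 16.5% of UMIs with gluten and 15.8 to 18.0% with HC alone.

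Pla2g1b, an acinar phospholipase gene outside the 10, was found in 7.26% of alpha cells in both libraries. At 2000 UMIs the shares were 1.75% and 1.43%, against 1.71% and 0.26% of T cells. It was looked at because its values stood beside those of Rnase1 in alpha cells.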
